A study of Homo sapiens with 12 samples.

Results

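The genes described here are 8 trefoil, mucus and secretory epithelial genes: TFF1, TFF2, TFF3, FCGBP, MUC20, MUC16, QPCT and FAM83A. They were chosen from measured values, since the list was drawn up with results of these same arrays known, and which contrast chose each gene is not recorded. Every probe whose annotated Entrez gene ID was that of one of these genes was taken, whether it carried the current symbol or an older name. This gave 11 of the 47322 probes, for 7 of the 8 genes and out of 20046 genes named by at least 1 probe. MUC20, a membrane mucin, has no probe under its gene ID in the annotation used here and is not analysed here. Of the other 7 genes, TFF2, TFF3 and FCGBP were detected on all 12 arrays, QPCT and FAM83A on the 10 treated arrays only, MUC16 on 1 array and TFF1 on none. In every treated group the levels of TFF2, TFF3, FCGBP, QPCT and FAM83A lay above the control.

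Trefoil factors are small secreted peptides with a three-looped, disulfide-bonded fold that mucous epithelia release together with mucins and that are known for their part in mucosal repair. FCGBP is a large secreted protein of the intestinal mucus layer that binds TFF3 through a disulfide bond, and MUC16 is the membrane mucin that carries the CA125 epitope. QPCT is the secreted glutaminyl cyclase, which forms the N-terminal pyroglutamate of peptide hormones and chemokines, and FAM83A is a cytoplasmic scaffold protein of EGF receptor signalling. In the breast, TFF1 and TFF3 are known as genes that the estrogen receptor activates in luminal cells.

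RNA of MDA-MB-231 cells, a mesenchymal-like human breast cancer line without estrogen receptor, was measured on 12 Illumina HT-12 v4 bead arrays in 6 groups of 2. The control cells received 0.1% DMSO for 14 days, and the 4 inhibitor groups received compound 1 (EPZ004777 in the labels) at 1 or 5 μM or compound 2 (Compound 55) at 2 or 10 μM for 14 days. The remaining group was transfected with 10 nM siRNA-1 against the histone H3K79 methyltransferase DOT1L, which both compounds inhibit, for 7 days. No array of cells transfected with a control siRNA was used, so time, transfection and target cannot be told apart in any comparison that holds siRNA-1. All groups are 1 cell line, and in such bulk RNA a change in the number of cells that express a gene and a change in RNA per cell cannot be told apart. The labels call both arrays of a group biological replicates, but the cells were plated in duplicate, so p-values measure only the spread between such arrays.

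Each array detected 34.0% to 36.7% of probes, at signals above 26.4 to 38.6, and replicate arrays correlated at r = 0.991 to 0.994. The DOT1L probe was not above background on the control arrays (24.6 and 22.6) or the siRNA-1 arrays (26.5 and 18.3), so these arrays give no check of the silencing. VIM, CD44, MSN and AXL, markers of this line, were detected on all 12 arrays, whereas FN1 was detected on 6 and SPARC and ZEB1 on none. Of the luminal or epithelial breast markers, ESR1, PGR and CDH1 were detected on 0 of 12 arrays. The intestinal or gastric markers CDX1, CDX2, VIL1, LGR5, CLCA1 and GKN1 were detected on none either. Of the same lists, however, the luminal or epithelial markers ERBB2, EPCAM, KRT8 and KRT19 were detected on all 12, GATA3 on 2 and the intestinal mucin MUC2 on 1. The endothelial markers CDH5 and VWF and the blood cell markers PTPRC, CD3E and HBB were also detected on none, while PECAM1 was detected on 11 arrays and CD68 on 12. PECAM1 moved with the treatments, from signals of 49.2 and 21 in the control to 78.4 to 170 on the treated arrays, and its part in the results was not tested.

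RefSeq promoters (GRCh38.p14, 250 bases before to 50 bases after the gene start) were at hand for 3 of the 8 genes, FCGBP, QPCT and MUC16. Those of FCGBP and QPCT are shown because these are the genes with higher levels on every treated array for which the start could be read. Capitals mark matches, on either strand, to 6 motifs: the GC box GGGCGG, the TATA box TATAAA, the CCAAT box, the E-box CACCTG that ZEB and SNAI factors bind, the AP-1 site TGANTCA and the palindromic estrogen response element. FCGBP lies at chr19:39934585-39934884 on the minus strand and QPCT at chr2:37344380-37344679 on the plus strand.
FCGBP: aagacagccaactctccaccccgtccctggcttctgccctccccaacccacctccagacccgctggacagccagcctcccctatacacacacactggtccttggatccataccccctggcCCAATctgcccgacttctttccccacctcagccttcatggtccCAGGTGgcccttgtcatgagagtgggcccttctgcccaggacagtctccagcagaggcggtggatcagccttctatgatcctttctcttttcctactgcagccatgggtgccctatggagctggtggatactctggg
QPCT: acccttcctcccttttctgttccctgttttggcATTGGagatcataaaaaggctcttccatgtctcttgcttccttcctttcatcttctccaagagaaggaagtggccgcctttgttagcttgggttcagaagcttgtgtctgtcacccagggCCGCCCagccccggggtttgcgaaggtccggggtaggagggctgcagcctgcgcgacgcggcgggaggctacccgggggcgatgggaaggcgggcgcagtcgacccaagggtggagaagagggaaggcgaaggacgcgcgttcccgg
The FCGBP window holds 1 CCAAT box, 130 bases upstream of the start, and 1 E-box, 87 bases upstream. The QPCT window holds 1 CCAAT box, 217 bases upstream, and 1 GC box, 97 bases upstream. Neither holds the TATA box, the AP-1 site or the estrogen response element in the form searched. Over 35116 promoters of this length, 34.6% hold the CCAAT box, 45.0% the GC box, 20.6% the E-box, 11.5% the TATA box, 7.71% the AP-1 site and 0.057% the estrogen response element. FCGBP has 4 CpG dinucleotides and QPCT 20, around a median of 14 over all these promoters. The windows thus share only the CCAAT box among the motifs searched, and a match is a description of letters, not a bound site.

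FCGBP, the mucus protein that binds TFF3, had the widest range of the 5 detected genes. Its brighter probe gave signals of 481.1 and 322.2 on the control arrays, 977.7 and 880.4 with compound 1 at 1 μM, and 1033.4 and 923.8 at 5 μM. Compound 2 gave 809.2 and 1116.8 at 2 μM and 846.4 and 877.4 at 10 μM, and with siRNA-1 2133.2 and 1897.4. All 10 treated arrays lay above both control arrays, the 8 inhibitor arrays lay between 809.2 and 1116.8, and both siRNA-1 arrays lay above them all. On the fitted log2 scale the difference from control was 1.12 and 1.19 with compound 1 at 1 and 5 μM, 1.14 and 1.15 with compound 2 at 2 and 10 μM, and 2.38 with siRNA-1 (SE 0.17 each). These correspond to 2.18-, 2.28-, 2.20-, 2.23- and 5.20-fold. The second FCGBP probe lay between -12.4 and -0.3 and was detected on no array, so the result rests on 1 probe.

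TFF3, the intestinal trefoil factor that pairs with FCGBP in mucus, was also highest with siRNA-1. Its signals were 52.2 and 31.7 in the control, 78.6 and 68.0 with compound 1 at 1 μM, and 76.1 and 64.0 at 5 μM. Compound 2 gave 79.4 and 108.2 at 2 μM and 80.1 and 69.9 at 10 μM, and with siRNA-1 98.8 and 126.9. Every treated array exceeded both control arrays, but the raw signals of the siRNA-1 arrays overlapped with compound 2 at 2 μM, which the centred log2 levels did not (6.94 and 7.23 against 6.33 to 6.73 on the 8 inhibitor arrays), and the second control array lay at the detection limit. The fitted log2 difference was 0.56 and 0.50 with compound 1 at 1 and 5 μM, 0.83 and 0.72 with compound 2 at 2 and 10 μM and 1.24 with siRNA-1 (SE 0.17 each). These values rest on dim signals, and they were smallest with compound 1.

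TFF2, the trefoil peptide of gastric and pancreatic mucus, had signals of 67.6 and 53.3 in the control, 98.9 and 124.6 with compound 1 at 1 μM, and 139.8 and 124.7 at 5 μM. Compound 2 gave 119.7 and 161.9 at 2 μM and 121.2 and 131.8 at 10 μM, and with siRNA-1 96.1 and 126.7. The control arrays lay below all treated arrays, and the range of the siRNA-1 arrays overlapped with that of each inhibitor group. The log2 difference from control was 0.67 and 0.88 with compound 1 at 1 and 5 μM, 0.94 and 0.97 with compound 2 at 2 and 10 μM, and 0.81 with siRNA-1 (SE 0.16 each), or 1.59- to 1.96-fold. TFF1, the estrogen-induced trefoil peptide, gave signals between -14.3 and 1.2 and was detected on none of the 12 arrays.

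**Figure D1:**
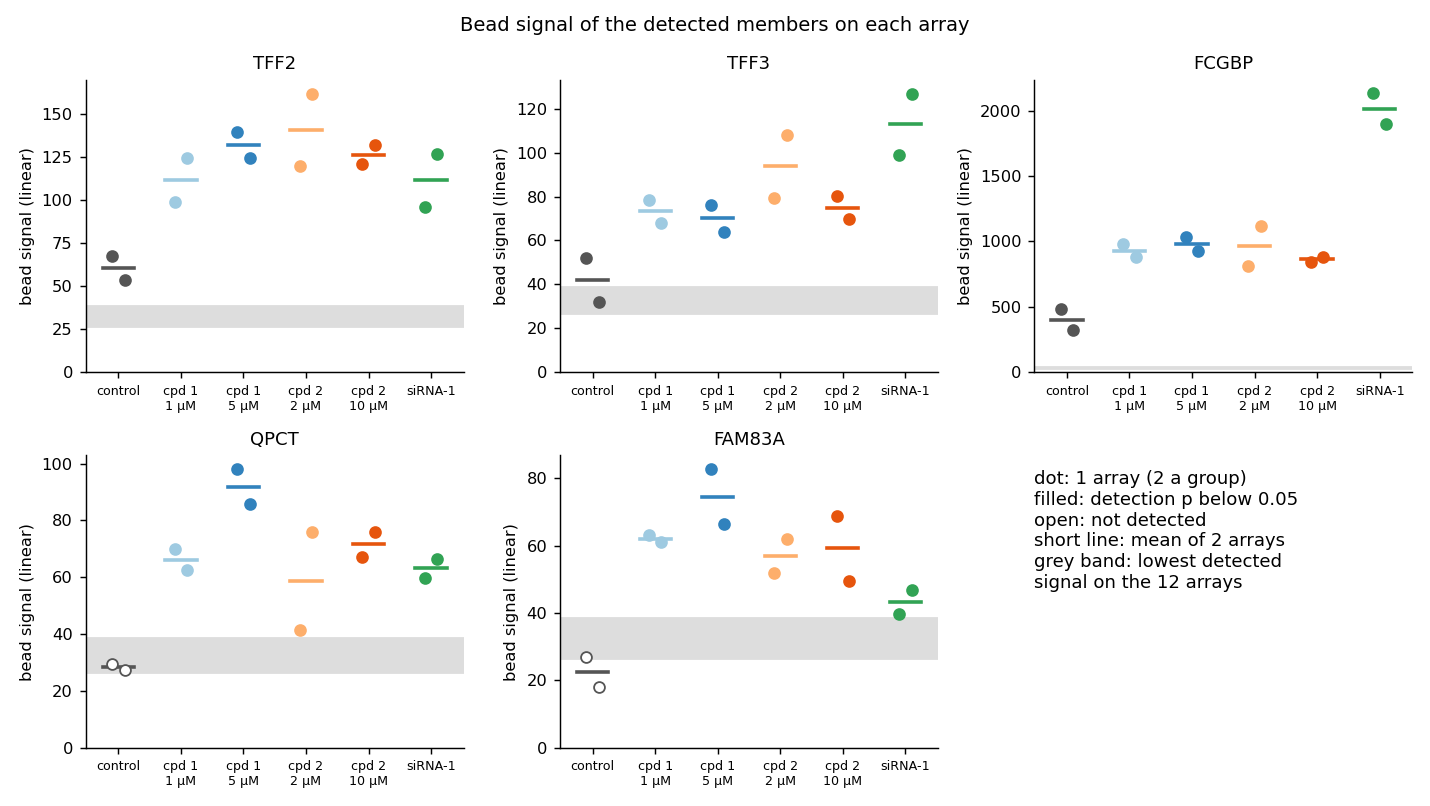
Linear bead signal of TFF2, TFF3, FCGBP, QPCT and FAM83A (brightest probe of each) on each array, by group. Dots are arrays, filled where the detection p was below 0.05, short lines are means of 2 arrays, and the grey band spans the lowest detected signal of the 12 arrays (26.4 to 38.6). All 10 treated arrays lie above both control arrays for each gene, and FCGBP reaches 2133.2 and 1897.4 with siRNA-1.

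QPCT and FAM83A were not detected on either control array, so their ratios to the control are lower bounds. QPCT, the glutaminyl cyclase, gave 29.4 and 27.2 in the control, 70.0 and 62.4 with compound 1 at 1 μM, and 98.0 and 85.7 at 5 μM. Compound 2 gave 41.4 and 75.9 at 2 μM and 67.1 and 76.1 at 10 μM, and with siRNA-1 59.9 and 66.4. All treated arrays lay above the control arrays, and compound 1 at 5 μM lay above all other arrays. Taking the control at the lowest detected signal of each array, or at the probe's own signal where that was higher, QPCT was at least 1.51- and 1.97-fold higher with compound 1 at 1 and 5 μM, at least 1.31- and 1.77-fold with compound 2 at 2 and 10 μM, and at least 1.61-fold with siRNA-1. The measured log2 differences were 0.76, 1.15, 0.56, 0.99 and 0.86 in the same order (SE 0.12 each). The second QPCT probe was detected on no array.

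FAM83A, the EGF receptor pathway scaffold, gave 26.9 and 17.9 in the control, 63.2 and 61.0 with compound 1 at 1 μM, and 82.7 and 66.5 at 5 μM on its brightest probe. Compound 2 gave 52.0 and 62.0 at 2 μM and 68.9 and 49.6 at 10 μM, and with siRNA-1 39.6 and 46.9. In raw signal the siRNA-1 arrays lay between the control and the 8 inhibitor arrays, whereas on the centred log2 scale (5.89 and 6.04) they overlapped with the inhibitor arrays (5.96 to 6.48). The bounds were at least 1.43- and 1.65-fold with compound 1 at 1 and 5 μM, 1.32- and 1.5-fold with compound 2 at 2 and 10 μM, and 1.20-fold with siRNA-1, beside measured log2 differences of 0.84, 1.05, 0.72, 0.91 and 0.59 (SE 0.16 each). A second FAM83A probe gave 7.3 and 10.3 in the control and 13.1 to 53.0 on the treated arrays, of which 1 array of compound 2 at 2 μM lay below both control arrays after centring (log2 level 5.03 against 5.08 and 5.05). It was detected on 7 arrays, its log2 differences from 0.30 to 0.95 had an SE of 0.24, and it was called in no treatment, so the 2 probes differ in call. The remaining FAM83A probe was detected on no array.

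MUC16, the CA125 mucin, gave 25.9 and 20.8 in the control, 7.8 and 17.9 with compound 1 at 1 μM, and 31 and 15.9 at 5 μM. Compound 2 gave 15.2 and 22.8 at 2 μM and 9.4 and 32.4 at 10 μM, and with siRNA-1 6.3 and 9.4. Only the higher array of compound 2 at 10 μM was above background, so no level or difference can be given for MUC16.

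**Figure D2:**
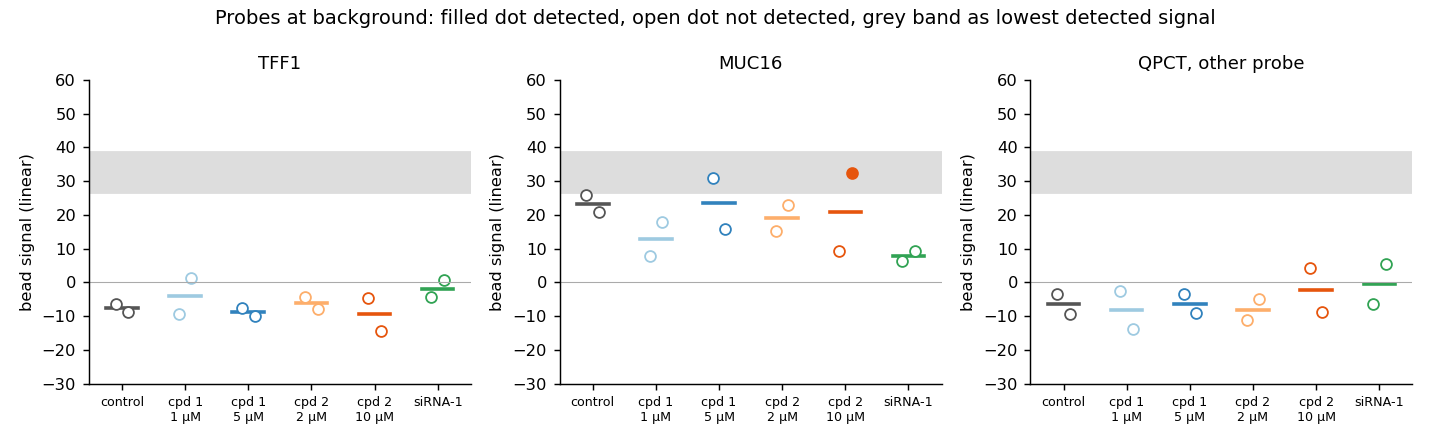
Linear bead signal of TFF1, MUC16 and the second QPCT probe on each array, by group, drawn as in the plot of detected genes. Open dots are not detected, and MUC16 with compound 2 at 10 μM holds the only detected value among these probes (32.4).

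A difference was called where the limma p, adjusted by Benjamini-Hochberg over all tested probes, was below 0.05. Of the 5 genes that passed the detection filter, 4 were called higher with compound 1 at 1 μM, where 3.73% of 10768 tested genes were called higher and 2.01% lower. With compound 1 at 5 μM it was 4 of 5, beside 2.02% higher and 0.474% lower. All 5 were called higher in the 2 μM group of compound 2 (2.8% higher, 1.29% lower), in its 10 μM group (2.91% higher, 0.78% lower) and with siRNA-1 (5.99% higher, 5.85% lower). The gene not called with compound 1 was TFF3 at both doses, and no member was called lower. These counts describe genes picked with such differences in view, QPCT and FAM83A passed the filter through the treated groups alone, and the 5 comparisons share their control arrays, so nothing is read from the counts. On the second control array all 5 genes had the lower signal of the control pair. Without that array the counts were 1, 2, 1, 2 and 3 in the same order. Leaving out 1 array of the treatment itself gave 0 or 1 calls with compound 1 at 1 μM, 1 or 0 with compound 2 at 2 μM and 2 either way at 10 μM. Compound 1 at 5 μM gave 2 without its replicate 1, and siRNA-1 gave 3 without its replicate 2. For compound 2 at 2 μM the count was also 3 when either array of the lower dose of compound 1, or either siRNA-1 array, was left out. The TFF3 call with compound 2 at 10 μM held in 1 of 12 fits without 1 array, and that of QPCT with compound 2 at 2 μM in 3 of 12. Without background correction TFF3 was called at neither dose of compound 2, nor TFF2 with compound 1 at 1 μM.

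**Figure D3:**
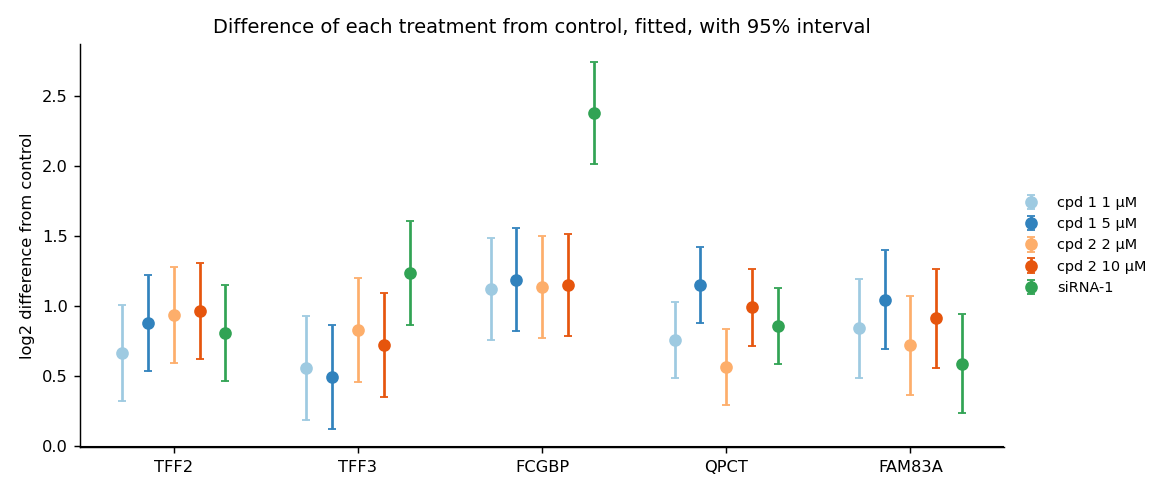
Fitted log2 difference from control (y axis) of the 5 genes that passed the detection filter (x axis) for each treatment, with bars for the 95% interval of the fit over all 12 arrays. QPCT and FAM83A were not detected on either control array, so their plotted differences rest on a control below background. The genes were picked with such differences in view, so the bars show the spread of the fit and are not a test. FCGBP with siRNA-1, at 2.38, lies apart from its 4 inhibitor values of 1.12 to 1.19, whereas TFF2 with siRNA-1, at 0.81, lies among the inhibitor values.

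The dose comparisons asked whether the higher dose of a compound gave a different level. At 5 against 1 μM of compound 1 QPCT was higher by 0.39 log2 (95% interval 0.12 to 0.66), and at 10 against 2 μM of compound 2 by 0.43 (0.15 to 0.70), neither of which passed the adjustment (limma adjusted p = 0.663 and 1.00). The other 4 genes differed by -0.06 (TFF3) to 0.22 (TFF2) between the doses of compound 1 and by -0.11 (TFF3) to 0.19 (FAM83A) between those of compound 2. For FCGBP, the difference was 0.07 (-0.30 to 0.43) with compound 1 and 0.02 (-0.35 to 0.38) with compound 2. limma called 0 of the 5 genes and 0% of all tested genes in both dose comparisons. At an unadjusted p below 0.05, QPCT alone of the 5 brightest probes passed in each, beside 6.44% and 2.75% of all tested genes. Which contrast chose the genes is not recorded, so the list may have been drawn up on the dose differences too. The second FAM83A probe differed by 0.65 (0.13 to 1.17) between the doses of compound 2, with an unadjusted limma p of 0.0182 and an adjusted p of 1.00.

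The compounds were given at different doses, so their levels above stand side by side and only the mean over the doses of each was tested. Averaged this way, compound 1 minus compound 2 was -0.18 (95% interval -0.42 to 0.06) for TFF2, -0.25 (-0.51 to 0.01) for TFF3, 0.01 (-0.25 to 0.27) for FCGBP, 0.18 (-0.01 to 0.37) for QPCT and 0.13 (-0.12 to 0.38) for FAM83A on the log2 scale. None of these 5 genes, and 0% of all tested genes, was called by limma (adjusted p = 1.00 for each of the 5). At an unadjusted p below 0.05 the count was 0 of the 5, beside 3.29% of all tested genes. The intervals leave room for differences of up to 0.51 log2 in TFF3. The difference between the dose effects of the compounds was also called for none of the 5. That the list was drawn up on the difference between the compounds cannot be told from the record either.

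Against the mean of the 4 inhibitor groups, siRNA-1 gave a higher level of FCGBP, by 1.23 log2 (SE 0.13), and of TFF3, by 0.58 (SE 0.13). FCGBP and TFF3 were the 2 genes called of 5, beside 22.7% of all tested genes called in either direction. Of all 3572 probes called in this comparison, 1740 were higher with siRNA-1. TFF2 differed by -0.05 (SE 0.12), QPCT by -0.01 (SE 0.10) and FAM83A by -0.29 (SE 0.13). These values are a description, since the list may have been drawn up on this difference. Without the second siRNA-1 array 1 gene was called.

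Related genes were taken from 10 lists of mucins, glycosylation enzymes, secretory regulators and relatives or substrates of the 8 genes. Of their 148 genes 140 have a probe and 62 were detected and tested. With compound 1 at 1 μM 4 of the 62 rose and 2 fell (6.45% and 3.23%, beside 3.73% and 2.01% of all tested genes), and at 5 μM 6 rose and 0 fell (9.68% and 0%, beside 2.02% and 0.474%). With compound 2 at 2 μM 3 rose and 1 fell (4.84% and 1.61%, beside 2.8% and 1.29%), and at 10 μM 4 rose and 0 fell (6.45% and 0%, beside 2.91% and 0.78%). With siRNA-1 15 rose and 7 fell (24.2% and 11.3%, beside 5.99% and 5.85%). The median log2 difference of the 62 was 0.11, 0.04, 0.08, 0.08 and 0.13 in the same order, against -0.03, -0.05, -0.04, -0.02 and -0.03 over all tested genes. The lists were drawn up with earlier results of these arrays known, and the filter keeps genes detected in any group, so nothing is read from these shares. Without the second control array 2 of the 62 were called with each inhibitor group, and without the other control array 11 and 9 with compound 2 at its lower and higher dose. Leaving out either array of the treatment itself gave 2 for compound 1 at 1 μM and for both doses of compound 2, and leaving out replicate 1 gave 3 for compound 1 at 5 μM.

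Of 5 gel-forming mucins 3 have a probe, none of which was detected well enough to be tested, and of 12 mucus partners and receptors of trefoil peptides only EGFR, the EGF receptor, was tested. EGFR fell with siRNA-1, by 0.86 log2 (SE 0.13, limma adjusted p = 0.00149), from signals of 453.2 and 496.8 to 227.5 and 255.9. The list of membrane and other mucins also holds surface proteins that are not mucins, such as MSLN. Of its 17 genes 6 were tested. Of these, 2, 1, 1, 2 and 1 rose in the order compound 1 (1 μM, 5 μM), compound 2 (2 μM, 10 μM), siRNA-1, and 1 fell with siRNA-1. MUC4, MUC15 and CD34 were called in no treatment. MUC1, the broadly expressed epithelial membrane mucin, had signals of 429.0 and 278.8 in the control, 699.9 to 934.0 on the 8 inhibitor arrays, and 1326.4 and 1532.2 with siRNA-1. These groups did not overlap, and MUC1 rose in every treatment, by 1.01 to 1.24 log2 with the inhibitors (limma adjusted p = 0.00442 to 0.0173) and by 2.06 after siRNA-1 (SE 0.18, adjusted p = 2.7e-05). Without the second control array its adjusted p was above 0.05 with compound 1 at 1 μM and with compound 2 at both doses, as it was when either array of the treatment itself was left out. MSLN, mesothelin, the surface protein that binds MUC16, fell by 1.19 log2 after siRNA-1 only (SE 0.16, limma adjusted p = 0.000626), from 357.6 and 329.7 to 106.9 and 167.8. PODXL, the sialomucin podocalyxin, rose by 0.61 with compound 1 at 1 μM and by 0.57 with compound 2 at 10 μM (SE 0.14 each, limma adjusted p = 0.0300 and 0.0460), but neither call held without the second control array or without either array of the treatment itself, and the latter held only in the fit without the control array of replicate 1.

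The granule exocytosis list gave 12 tested genes of 17. RAB27B, a small GTPase that tethers secretory granules to the plasma membrane, had signals of 113.2 and 94.8 in the control and 272.8 to 414.7 on the 10 treated arrays, with no overlap. It rose by 1.38 to 1.5 log2 with the inhibitors and by 1.77 after siRNA-1 (SE 0.13, limma adjusted p = 1.22e-05 to 0.000639). With siRNA-1, SYTL4, a synaptotagmin-like effector of RAB27, rose by 0.59 (SE 0.12, limma adjusted p = 0.00979; not without replicate 1 of the control or either siRNA-1 array), and EXPH5, another RAB27 effector, fell by 1.46 (SE 0.27, limma adjusted p = 0.00464), with 1 of its 2 siRNA-1 arrays below background. No other gene of this list was called against the control.

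Of 22 goblet and secretory regulators and products 8 were tested, and with siRNA-1 3 rose and 1 fell. SPDEF, a transcription factor that drives goblet cell maturation, rose from 175.8 and 163.5 to 385.8 and 399.5 with siRNA-1, while the 8 inhibitor arrays lay at 105.9 to 189.7. Its difference was 1.21 log2 from the control (SE 0.13, limma adjusted p = 9.68e-05) and 1.55 from the inhibitor groups (SE 0.10, limma adjusted p = 2.42e-06). AGR2, a protein disulfide isomerase needed for mucin folding, was not detected in the control (31.4 and 0.0) and gave 66.6 and 74.6 with siRNA-1. That was at least 1.76-fold higher (measured log2 difference 1.29, SE 0.27, limma adjusted p = 0.0113). AGR2 was also above background on 1 array of compound 2 at 2 μM (64.9) and on 1 array of compound 1 at 1 μM (40.1). AGR2 was not called without the control or the siRNA-1 array of replicate 2, nor without background correction (adjusted p = 0.111) or in the series matrix (adjusted p = 0.0890). SYTL2, a further RAB27 effector, rose by 0.88 after siRNA-1 (SE 0.17, limma adjusted p = 0.00640), and the call did not hold without the control array of replicate 1 or the siRNA-1 array of replicate 1. The gene that fell with siRNA-1 was XBP1, the regulator of the secretory pathway, by 0.71 (SE 0.13), and the 1 gene called with compound 1 at 5 μM was KLF4, a transcription factor of goblet cells, by 0.83 (SE 0.19). Both were named after their values were seen, outside the rule that picked the other related genes by their own calls. The KLF4 call held only in the fits without the control array of replicate 1 or 1 array of the lower dose of compound 2.

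**Figure D4:**
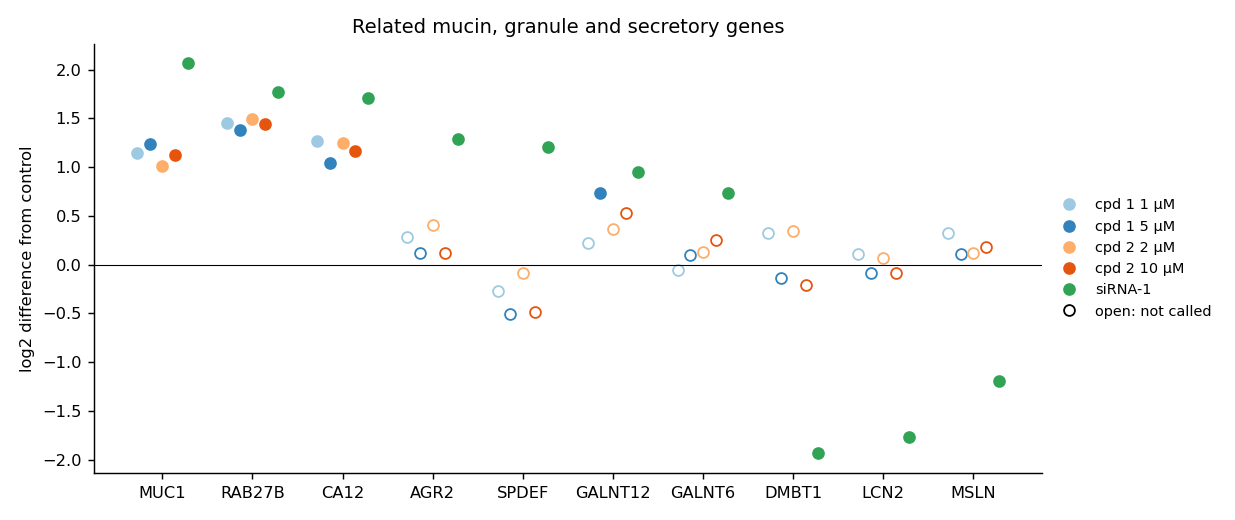
Fitted log2 difference from control (y axis) of 10 related genes (x axis) for each treatment. Filled dots were called at a limma adjusted p below 0.05 and open dots were not. MUC1, RAB27B and CA12 are called in all treatments, whereas SPDEF at 1.21 and AGR2 at 1.29, and in the other direction DMBT1, LCN2 and MSLN, are called with siRNA-1 alone.

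Of 27 enzymes of mucin-type O-glycosylation 17 were tested, with 4 higher and 0 lower after siRNA-1 and 1 higher with compound 1 at 5 μM. GALNT6, which starts O-glycan chains on serine and threonine, rose by 0.74 after siRNA-1 (SE 0.18, limma adjusted p = 0.0218), and GCNT1, which branches them, by 0.62 (SE 0.13, limma adjusted p = 0.0107). Neither call held without either siRNA-1 array, nor that of GALNT6 without the second control array. GALNT12, another initiating enzyme, was below background in the control and at least 1.20-fold higher with siRNA-1 (measured log2 difference 0.95, SE 0.15, limma adjusted p = 0.00208). It was at least 1.04-fold higher with compound 1 at 5 μM, and that call did not hold without any one array of the control, compound 1 or siRNA-1 groups. The remaining gene that rose was C1GALT1C1, the chaperone of the core 1 enzyme, by 0.46 (SE 0.12), named after its value was seen and not called when either control or either siRNA-1 array was left out.

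Of 20 secreted products of glandular epithelium 3 were tested, and 2 of them fell with siRNA-1. LCN2, the siderophore-binding lipocalin, gave 7304.2 and 4764.1 in the control, 5016.7 to 7183.5 on the inhibitor arrays, and 1572.0 and 1707.7 with siRNA-1, a log2 difference of -1.77 (SE 0.18, limma adjusted p = 9.57e-05). DMBT1, a scavenger receptor protein of mucus, fell from 130.5 and 100.9 to below background at 9.6 and 13.6, at least 2.80-fold lower (limma adjusted p = 7.86e-06). Neither gene was called with an inhibitor.

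Among 14 estrogen-responsive genes 9 were tested, of which 3 rose and 1 fell with siRNA-1 and 1, CA12, rose in each inhibitor group. CA12, a membrane carbonic anhydrase that the estrogen receptor activates in luminal cells, gave 255.8 and 235.2 in the control and 492.1 to 828.5 on the treated arrays, and rose by 1.04 to 1.27 log2 with the inhibitors and by 1.71 after siRNA-1 (SE 0.15, limma adjusted p = 2.87e-05 to 0.00436). The CA12 call with compound 1 at 5 μM did not hold without the second control array. ESR1 itself was detected on no array. After siRNA-1 CTSD, the lysosomal protease cathepsin D, rose by 0.99 (SE 0.18, limma adjusted p = 0.00398). CTSD also lay above the control in each inhibitor group, by 0.50 to 0.66 log2, but was not called there. STC2, a secreted glycoprotein, fell after siRNA-1 to below background, at least 1.57-fold lower (limma adjusted p = 0.00499, not called without its replicate 2). The remaining gene that rose was IGFBP4, a binding protein of insulin-like growth factors, by 0.58 (SE 0.13, limma adjusted p = 0.0139), named after its value was seen and not called without the second control array or either siRNA-1 array.

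Of the other FAM83 proteins 2 of 7 were tested. FAM83D, a partner of the mitotic spindle, fell by 0.50 with compound 1 at 1 μM and by 0.53 with compound 2 at 2 μM (SE 0.12, limma adjusted p = 0.0347 and 0.0359), and FAM83F fell by 0.58 with compound 1 at 1 μM (SE 0.15, limma adjusted p = 0.0460). Neither FAM83D call held without the second control array, either array of the treatment itself or either siRNA-1 array, and that of FAM83F held only in the fits without 1 siRNA-1 array. None of these calls held with the arrays centred on all probes. Of the glutaminyl cyclase paralog and the substrates of the enzyme 4 of 10 were tested. CX3CL1, the chemokine fractalkine, was below background in the control and at least 1.79-fold higher with compound 1 at 5 μM and 2.26-fold with siRNA-1 (limma adjusted p = 0.00940 and 0.000329), the former not without the second control array or replicate 1 of that treatment. CX3CL1 was also detected on both arrays of each other inhibitor group. There it was at least 1.29-fold higher with compound 1 at 1 μM and 1.28- and 1.36-fold with compound 2 at 2 and 10 μM. None of these differences was called. CCL2, a monocyte chemokine whose N-terminal glutamine QPCT cyclizes, was detected on the siRNA-1 arrays only, at 44.3 and 64.1, at least 1.41-fold above the control (limma adjusted p = 0.000208).

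The 3 trefoil genes stand side by side on chromosome 21 in the order TFF3, TFF2, TFF1. On the TFF3 side the next gene is ABCG1, a sterol exporter, and on the TFF1 side TMPRSS3, a membrane serine protease. ABCG1 had signals of 68.1 and 21.6 in the control, 106.6 to 158.6 on the inhibitor arrays, and 21.9 and 28.6 with siRNA-1. It rose by 1.22 log2 with compound 1 at 1 μM and by 1.21 and 1.58 with compound 2 at 2 and 10 μM (limma adjusted p = 0.0294, 0.0372 and 0.0130), and its difference of 1.15 with compound 1 at 5 μM did not pass (adjusted p = 0.0548). The second control array was below background, and without it none of these calls held. With siRNA-1, where TFF3 was highest, ABCG1 differed by -0.38 (limma adjusted p = 0.427). The first siRNA-1 array, at 21.9, was below background as well, so this difference rests partly on undetected signals in both groups. TMPRSS3 was called in no treatment, with differences of -0.42 to 0.02, and neither were C2CD2, ZBTB21 and SLC37A1, while UMODL1, UBASH3A and RSPH1 were not detected. FAM83A-AS1, the antisense gene beside FAM83A, was detected on 5 arrays and called in no treatment, at -0.45 to 0.09.

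**Figure D5:**
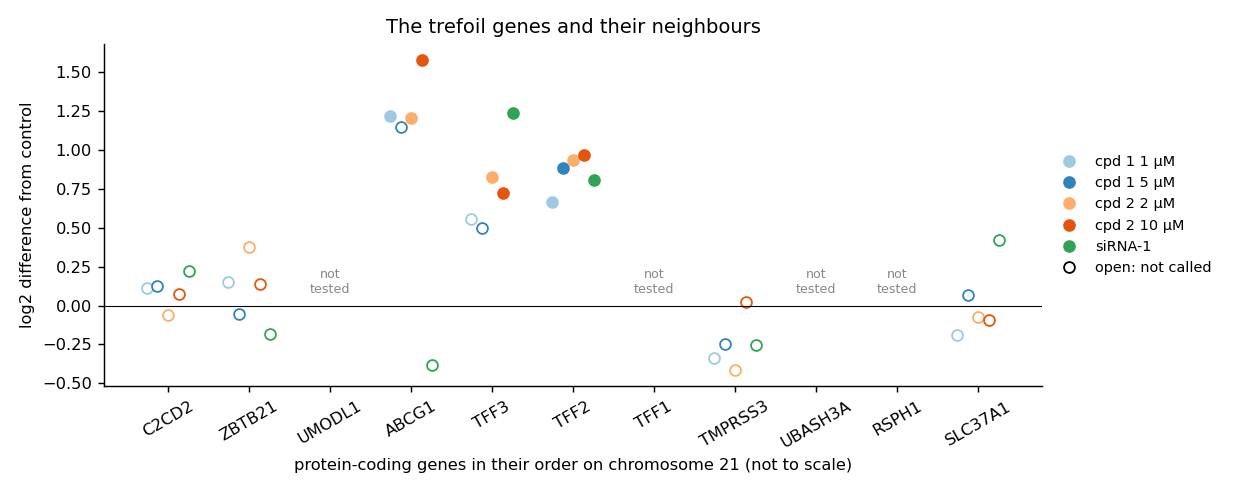
Fitted log2 difference from control (y axis) of the trefoil genes and their neighbours, in their order on chromosome 21 (x axis, not to scale), for each treatment. Filled dots were called at a limma adjusted p below 0.05, and genes marked as not tested were below background. TFF3 and TFF2 were picked with such differences in view, so their filled dots are a description and not a test. ABCG1 reaches 1.58 with compound 2 at 10 μM and lies at -0.38 with siRNA-1, whereas TFF3 and TFF2 lie above the control in each treatment. For ABCG1, the second control array and the first siRNA-1 array were below background.

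By their means in the 6 groups, the genes most like FCGBP among 583 genes that spanned at least 1 log2 unit were ADIRF, MALL and FZD4 (Pearson r = 0.999, 0.999 and 0.996 over 6 means). For TFF3 they were COL18A1, EPHA4 and PRICKLE2 (r = 0.974, 0.974 and 0.972), and for TFF2 LAIR2, PTPRU and GSN (r = 0.967, 0.965 and 0.962). For QPCT they were FGGY, TSNARE1 and AKR1C2 (r = 0.983, 0.973 and 0.973), and for FAM83A CAMK1D, CCN3 and TSNARE1 (r = 0.990, 0.990 and 0.986). TSNARE1 stood near both QPCT and FAM83A, the genes that were highest with compound 1 at 5 μM. For QPCT and FAM83A, the control mean comes from arrays on which neither gene was detected. All values come from the same arrays, and with 6 means and 583 candidates high r values are a description only.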

How the data were processed

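Each of 6 groups of MDA-MB-231 cells had 2 Illumina HT-12 v4 arrays, 12 in all. The intensity values, as deposited by the authors, are linear bead signals from BeadStudio (version not given in the sources used here), with background subtracted and no normalization. The deposited table also holds the detection p-values, computed by BeadStudio from negative control beads. Of its 47324 lines 2 were damaged and left out. The p-values stand in another row order than the signals, so they were assigned by rank within each array. The log2 values of the series matrix, as deposited, are log2 signals floored at 1, less the array median (largest difference 5.0e-09). The replicate columns of compound 2 at 10 μM are exchanged in that matrix. Per-array signals and this matrix were the values used, and the matrix served as an alternative.

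Signals were corrected with normexp (offset 16) in limma 3.58.1 under R 4.3.3 and log2-transformed. The centre of an array was the median of the 11806 probes whose detection p was below 0.01 everywhere. Tests covered the 17911 probes with a detection p below 0.05 on both arrays of any group. The linear model held 6 group means and used all arrays, with 6 residual and 5.59 prior degrees of freedom, adjustment by Benjamini and Hochberg within each comparison and a call at an adjusted p below 0.05. The median 95% interval of a difference from control reached 0.34 log2 to either side, and the number of arrays limits the precision. The fit was checked on simulated data. Symbols came from the array annotation (30113 probes with 1 symbol, 8 with several, 17201 with none). The probe with the highest mean over all arrays stands for a gene.

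The 8 genes and the related lists were chosen with earlier results of these data known. From each list, genes called in at least 3 of 5 treatments were named, together with the 3 called genes with the largest difference. The named related genes were thus picked by their own calls, and their p-values are not a separate test. XBP1, KLF4, C1GALT1C1 and IGFBP4 were named outside this rule. Differences of the 8 genes from control, and of siRNA-1 from the inhibitors, are given without p-values. Likeness was measured by Pearson r over group means. Alternatives were no background correction, an offset of 50, centring on all probes, quantile normalization, other detection filters, the series matrix, the compared groups only, the replicate number as a block, and fits without 1 array. Same-numbered arrays did not deviate together (correlations of -0.38 to 0.21, above 0.1 in 2 of 15 pairs of groups), so the numbers were not taken as pairs. Plots used Python 3.11.15 and matplotlib 3.10.9.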

Additional observations from a re-analysis of the deposited data

How the results depend on the processing

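No difference from control of the 5 detected genes, and no called difference of the named related genes, changed direction under any alternative. Small differences between treatments did. With an offset of 50 and in the series matrix, QPCT with siRNA-1 against the inhibitors was 0.0139 and 0.0295. Centring on all probes gave -0.0450 for TFF2 and -0.0584 for FCGBP between the doses of compound 2, and the series matrix -0.0503 for FCGBP between the doses of compound 1 and -0.00711 between the compounds. Without 1 array, these ranged from -0.0185 to 0.0775 (TFF2) and -0.00312 to 0.0355 (FCGBP) between the doses of compound 2, from 0.00928 to 0.126 (FCGBP) between those of compound 1, and from -0.0192 to 0.0393 (FCGBP) between the compounds. FAM83A between the doses of compound 2 ranged from -0.00178 to 0.385, TFF3 between those of compound 1 from -0.130 to 0.00991, and siRNA-1 against the inhibitors from -0.216 to 0.109 for TFF2 and from -0.0566 to 0.0386 for QPCT. The order below is compound 1 (1 μM, 5 μM), compound 2 (2 μM, 10 μM), siRNA-1. Requiring detection on all 12 arrays left 2, 2, 3, 3 and 3 of the 8 genes called higher, since QPCT and FAM83A were then not tested, and 7 related genes with compound 2 at 10 μM. An offset of 50 gave 3 with compound 2 at 2 μM. Fits to the compared groups only gave 1 with compound 1 at 5 μM, 0 with compound 2 at 2 μM and 3 at 10 μM, and 3, 2 and 2 related genes with both doses of compound 1 and with compound 2 at 2 μM, from fewer arrays. Centring on all probes, which moved the median of all genes by 0.12, 0.11, 0.12, 0.05 and 0.04, gave 11 related genes with compound 1 at 5 μM, and quantile normalization 7 with compound 2 at 10 μM; the cause was not tested. Leaving out 1 array at a time, the genes of the 8 called higher ranged from 0 to 5, 2 to 5, 0 to 5, 2 to 5 and 3 to 5, those called against the inhibitors from 1 to 2, and related genes from 2 to 8, 2 to 9, 2 to 11, 2 to 9 and 15 to 23. The dose and compound comparisons gave 0 throughout.

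With the replicate number as a block, 4, 4, 5, 5 and 5 of the 8 genes were called higher, as without it, 6, 5, 4, 3 and 22 related genes, and 769, 317, 452, 482 and 1639 probes, against 943, 388, 649, 566 and 1831 without it. QPCT and FAM83A lay near background in the control, which limits their ratios to bounds.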
